A study of Canis lupus familiaris with 25 samples.

Results

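The 17 dogs labelled B-cell were compared by the number at the end of their sample names. In one series of sample names this number takes only odd values, and in the other it runs from 1 to 12. Of the 25 dogs with lymphoma in the study, the labels give 17 as B-cell. The labels were followed here, and the paper's text counts one dog fewer as B-cell and one more without an immunophenotype. The odd series held 6 of them (dogs 027A, 029A, 030A, 033A, 034A and 037A, numbers 19 to 37) and the consecutive series 11 (dogs 001, 002, 003A, 005, 006, 008, 009, 012, 016, 017 and 022, numbers 1 to 12). No measured value was used to choose or divide the dogs. All samples were lymphoma cells drawn by fine needle from lymph nodes before CHOP chemotherapy (cyclophosphamide, doxorubicin, vincristine and prednisone), and dogs could have had 1 earlier injection of prednisone. There was 1 sample per dog, and no healthy dogs were included. Survival was labelled short in 3 and long in 3 odd-series dogs, and short in 2 and long in 9 consecutive-series dogs. For that reason the survival class was a covariate in the comparison of genes, but not in the permutation tests of single measures. The labels do not state what the number or the suffix letter A stands for, and they give no age, breed or sex. Which technician isolated a sample was not used here. The series and whatever else differed between these dogs cannot be told apart.

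B-cell lymphoma is a cancer of the lymphocytes that make antibodies, and in dogs it usually shows as enlarged lymph nodes. A needle aspirate takes up tumour cells together with any T cells, macrophages, blood and stroma in its path, so its RNA is a mixture. The make-up of a sequencing library also depends on how the RNA was isolated and selected. In a bulk sample, fewer cells of a type and less RNA per cell cannot be told apart. The tables list genes by Ensembl identifier only, and 0 of the 32704 identifiers could be paired with a gene symbol in the reference table used here. The B-cell label could therefore not be set against marker genes, the lists of marker and pathway genes could not be applied, and genes are described by abundance, by length and by 4 identifiers.

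The read counts of the 17 dogs totalled 9592039 to 28979456 per dog. The odd series had lower totals, with 16469556 ± 3825872 counts (SD, n = 6) against 21389525 ± 4002361 (SD, n = 11, two-sided exact permutation test, p = 0.0226). The number of reads sequenced was not examined, and depth here means the count total. Dog 029A had the smallest total. The closest pair of libraries, from dogs 005 and 022, correlated with r = 0.968. Over 11679 genes their counts were still unlike beyond counting noise (chi-square per degree of freedom, 67.2), so no library was counted as a copy of another. Dog 037A, labelled B-cell with long survival in the odd series, had count and FPKM columns that disagreed. FPKM scales a count for gene length and depth. With every gene centred on its own mean, log2 CPM (counts scaled to the library total) and log2 FPKM of dog 037A correlated with r = 0.268 over 11680 genes, beside 0.893 to 0.973 in the other 16 dogs. These are correlations across genes, which are not independent replicates. Results are therefore also given without dog 037A.

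Gene expression differed between the series in a large share of genes. With the survival class as covariate, 3237 of the 20360 genes tested in the counts (15.9%) passed an adjusted p of 0.05 in edgeR's quasi-likelihood test with Benjamini-Hochberg adjustment. Of these, 1107 were higher in the odd series (5.44% of genes tested) and 2130 were lower (10.5%). Without dog 037A the test called 1646 of 19963 genes (8.25%), 466 higher and 1180 lower. Without consecutive-series dog 008 it called 5089 genes, 3255 higher and 1834 lower, so that most calls were then higher. Without dog 001, 009 or 034A it called 1584, 1609 and 1590 genes, most of them lower. Of the 1645 calls without dog 037A that were tested in both fits, 1602 were also called in all 17 dogs, all in the same direction. In the FPKM table, limma on log2(FPKM + 1) called 1166 of 13256 genes (8.8%), 247 higher and 919 lower.

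The genes called higher and those called lower differed in size of change and in abundance, and the sizes depended on the scaling described below. Genes called higher had a median log2 fold change of 1.84 (quartiles 1.45 and 2.34) and a median abundance of 1.07 CPM. Genes called lower had a median log2 fold change of -0.87 (quartiles -1.10 and -0.68) and a median abundance of 30.6 CPM. Of the 1107 genes called higher, 1054 differed at least 2-fold, 450 at least 4-fold and 78 at least 8-fold. Of the 2130 called lower, 736 differed at least 2-fold, 10 at least 4-fold and 0 at least 8-fold. In 248 of the genes tested (1.22%) all 6 odd-series dogs lay above all 11 consecutive-series dogs, and in 592 (2.91%) all 6 lay below. The groups did not overlap in 214 of the genes called higher (19.3%) and in 586 of those called lower (27.5%). Called genes had been picked for differing between these same dogs, so the larger shares among them follow in part from that choice.

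The balance of directions depended on how the libraries were scaled, on the filter and on single dogs. The counts above were scaled by TMM (trimmed mean of M values), which gave the odd series larger factors. The factor averaged 1.16 ± 0.175 (SD, n = 6) in the odd series and 0.935 ± 0.126 (SD, n = 11) in the consecutive series (two-sided exact permutation test, p = 0.0108, 0.0152 after adjustment over 7 library measures, and 0.1 among dogs with long survival). With TMM 34.2% of the called genes were higher in the odd series. With upper-quartile factors the share was 75.1% of 2566 genes, and with library totals alone 57.7% of 1285. Over the genes in both fits, these scalings moved the median log2 fold change up by 0.35 and 0.29. Calls of at least 2-fold were 1054 higher and 736 lower with TMM. They were 1715 and 131 with upper-quartile factors, and 706 and 140 with library totals. With no filter on low counts the share was 47.8% of 3374. DESeq2, which changed the test, the size factors and the filter together (32033 genes tested), gave 73.6% of 6921, with a median shift of 0.16. Statements below on genes as a class are therefore differences between classes in the same fit, and a direction given for a class is the direction under TMM.

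The most abundant genes and the least abundant genes moved apart. Genes tested were divided into 10 classes of 2036 genes by their mean CPM over the 17 dogs. In the lowest class, of 0.158 to 0.409 CPM, the median log2 fold change was 1.60, and 11.5% of genes were called higher and 0.0982% lower. In the fifth class, of 2.13 to 4.78 CPM, the median was 0.13, with 8.15% higher and 5.89% lower. In the highest class, from 111.5 CPM upward, the median was -0.36, with 0.589% higher and 17.5% lower. The low classes are affected by the filter on low counts, which a rare gene can pass through the series in which it is more abundant. Genes of 1 to 5 CPM are hardly touched by that filter, since 4572 of these 4584 genes were tested. The class itself was formed from the mean CPM of the same 17 dogs. A gene can therefore still enter it through the series in which it is more abundant. Of the 4572 genes, 412 were called higher and 170 lower, with a median log2 fold change of 0.38. Of the 10094 genes of 5 CPM or more, all of which were tested, 154 were called higher and 1934 lower, with a median of -0.33.

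**Figure D1:**
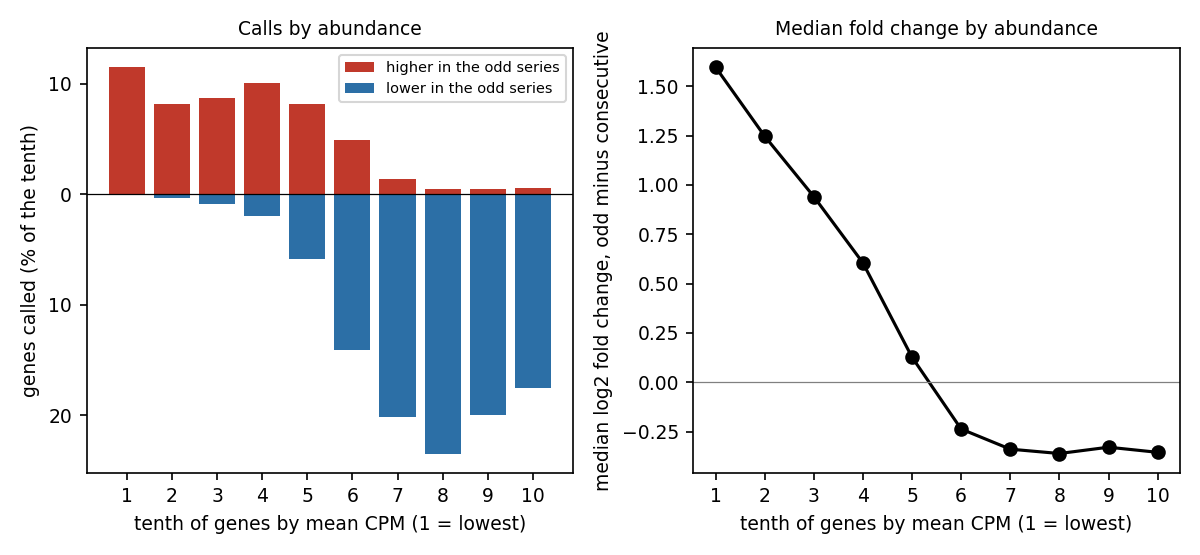
Left, percentage of the genes in each of 10 classes by mean CPM that were called higher (red, above the line) or lower (blue, below the line) in the odd series by edgeR. Right, median log2 fold change (odd minus consecutive, TMM scaling) of all genes tested in each class, which falls from 1.60 in the lowest class to -0.36 in the highest.

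The medians of these classes lay 0.71 apart on the log2 scale. A scaling factor shifts all genes of a dog alike, so a change of scaling alone could hardly move this gap. It was 0.71 with upper-quartile factors and 0.72 with library totals. With DESeq2 the gap was 0.74, and with the suffix letter in place of the series 0.55. When every library was drawn down to 9592039 counts it was 0.70, and with any 1 of the dogs removed it lay between 0.64 and 0.83. The gap was 0.57 among dogs with long survival alone (3 odd, 9 consecutive) and 0.98 among dogs with short survival alone (3 odd, 2 consecutive). In limma it was 0.15 on log2(FPKM + 1) and 0.19 on log2(FPKM + 0.1), over fewer genes of 1 to 5 CPM (2112). Over the genes of the limma fit the edgeR gap was 0.26, with medians of -0.07 and -0.34. The size of the edgeR gap thus depended on which genes of 1 to 5 CPM were included. Limma on log2(FPKM + 1) with no filter gave 0.25 over 4584 genes of 1 to 5 CPM, nearly those of the main edgeR fit (4572). The limma gap thus stayed below 0.71 over nearly the same genes, and the reason was not tested. As a ratio of series means with no pseudocount, over the 16 dogs other than 037A and with library totals alone, the tables were close. The median log2 ratio of genes of 1 to 5 CPM was 0.69 in the counts and 0.61 in the FPKM values, and that of genes of 5 CPM or more was -0.08 and -0.14.

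Rare genes also took up more of each odd-series library. The 17528 genes with counts and a mean under 1 CPM held 0.391% to 1.42% of the counts in the odd series, with a median of 0.821%. In the consecutive series they held 0.107% to 0.765%, with a median of 0.220%. The means were 0.836% ± 0.374 (SD, n = 6) and 0.299% ± 0.197 (SD, n = 11; two-sided exact permutation test, p = 0.00291, adjusted 0.00594). The series overlapped because of consecutive-series dogs 008 (0.765%) and 017 (0.547%), and the other 9 dogs of that series were at most at 0.373%, below all 6 odd-series dogs. Within long survival the means were 0.677% (n = 3) and 0.306% (n = 9; two-sided exact permutation test, p = 0.0545, where the smallest possible is 0.00909).

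More genes were detected in the odd series although its count totals were lower. At least 1 count was found for 28151 to 31063 genes per odd-series dog (median 30049) and for 19010 to 30492 genes per consecutive-series dog (median 24990). The mean difference was 4814 genes (exact permutation test, two-sided, p = 0.00339, adjusted 0.00594). At equal depth it was 5798 genes (two-sided exact permutation test, p = 0.00194). Among dogs with long survival alone (n = 3 and 9) neither difference passed the threshold (two-sided exact permutation test, p = 0.0727 for each). At equal depth all 6 odd-series dogs, of both survival classes, ranged from 26102 to 30346 genes. Dogs 008 (28572) and 017 (27466) lay within that range, dog 022 had 26136, and the other 8 consecutive-series dogs had fewer than the lowest odd-series dog. The share of counts taken by the 100 most abundant genes was 23.6% ± 3.99 (SD, n = 6) and 22.4% ± 2.35 (SD, n = 11), a difference smaller than the SD of either series (exact permutation test, two-sided, p = 0.441).

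**Figure D2:**
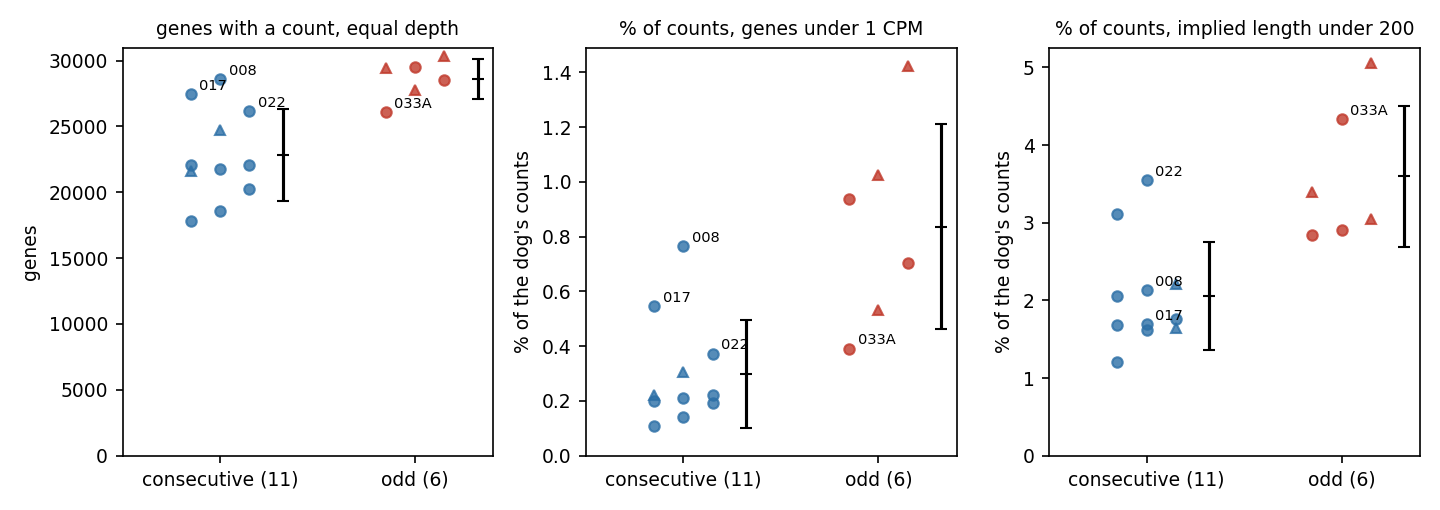
Each point is 1 B-cell dog (circles long survival, triangles short survival), and the black bars are the mean ± SD of each series. The panels show genes with at least 1 count at equal depth, and the percentage of a dog's counts in genes under 1 CPM and in genes with an implied length under 200 bases. Dogs 008 and 017 (and 022 in the first panel) of the consecutive series lie among the odd-series dogs in the first and second panels, and dogs 008 and 017 do not in the third.

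Genes were then classed by length. The files give no lengths, but the count of a gene divided by its FPKM and by the library total is proportional to the length that the FPKM was scaled by, where both tables counted the same reads. This implied length, pooled over the 16 dogs other than 037A, could be computed for 19254 of the genes tested. It is an approximation in bases and was used only to class genes. For 228 of the genes tested it was under 50 bases, shorter than an annotated transcript is likely to be, as arises where the FPKM of a gene is high for its count, and these genes were set apart. Its use was decided after the identifiers with the smallest p-values had been seen.

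Genes of 50 to 200 bases were called higher more often than the other length classes of 5 CPM or more. Of these 197 genes, 39 were called higher (19.8%) and 3 lower (1.52%), with a median log2 fold change of 0.42. Over all genes of 5 CPM or more 1.53% were called higher and 19.2% lower, with a median of -0.33. Genes of 1000 to 2000 bases at this abundance showed 0.460% higher and 21.1% lower, and those of 2000 to 4000 bases 0.394% and 22.8%. The 51 genes under 50 bases had 6 called higher and 1 lower, with a median of -0.46. Among the 219 genes of 50 to 200 bases with 1 to 5 CPM, 29 were called higher (13.2%) and 6 lower (2.74%), with a median of -0.03. The abundance classes were cut on the mean CPM of the same dogs, which limits this comparison. A short gene can reach 5 CPM through the series in which it is more abundant. How far this raised the 19.8% was not tested.

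Among genes of 1 to 5 CPM, those of long implied length had the largest share of higher calls. Of the 656 genes over 8000 bases, 130 were called higher (19.8%) and 1 lower (0.152%), with a median log2 fold change of 1.502. Of the 1012 genes of 4000 to 8000 bases, 152 were called higher and 6 lower, with a median of 0.84. Genes of 1000 to 2000 bases showed 3.51% higher and 7.94% lower, with a median of -0.02. All 4572 genes tested at this abundance showed 9.01% higher and 3.72% lower, with a median of 0.38. At 5 CPM or more, 5.03% of the 735 genes over 8000 bases were called higher and 12.2% lower. The limit given for short genes holds here too, since a gene can reach 1 CPM through the series in which it is more abundant.

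**Figure D3:**
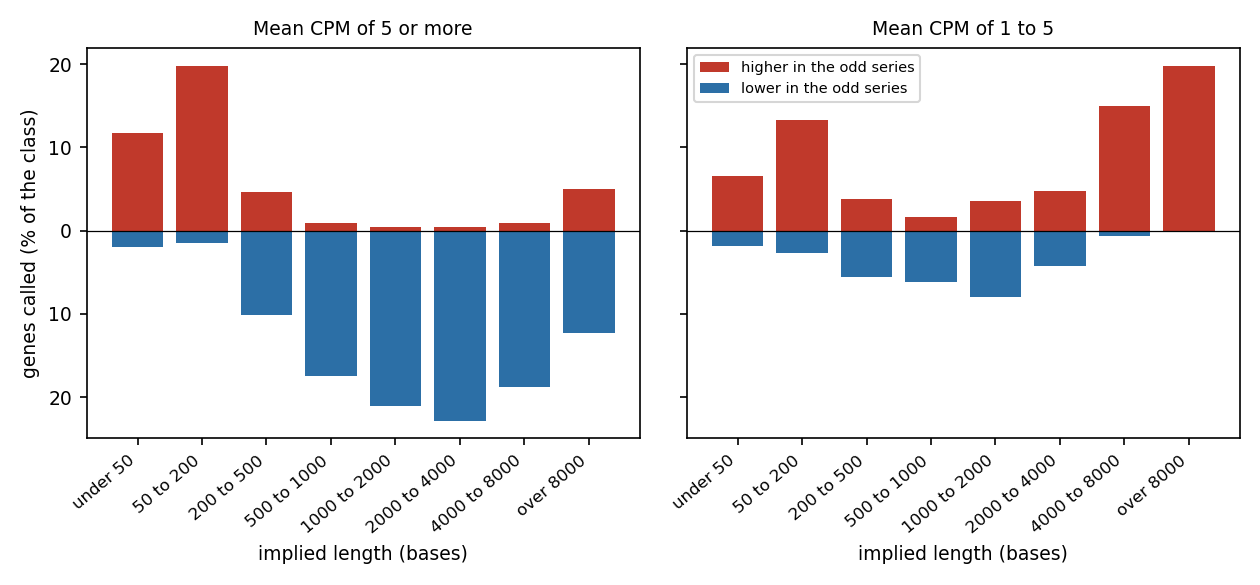
Percentage of genes called higher (red, above the line) or lower (blue, below the line) in the odd series by edgeR, in 8 classes of implied length, for genes with a mean of 5 CPM or more (left) and of 1 to 5 CPM (right). The class of 50 to 200 bases has 19.8% of its genes called higher on the left, and the class over 8000 bases has 19.8% on the right.

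The 904 genes of implied length under 200 bases took 2.84% to 5.06% of the counts in the odd series (mean 3.60% ± 0.904, SD, n = 6). In the consecutive series they took 1.20% to 3.55% (mean 2.06% ± 0.695, SD, n = 11; two-sided exact permutation test, p = 0.00275, adjusted 0.00594). Among dogs with long survival alone the means were 3.36% and 2.09% (n = 3 and 9, two-sided exact permutation test, p = 0.0545). The 663 genes of 50 to 200 bases held most of this share, 3.44% ± 0.899 (SD, n = 6) and 1.95% ± 0.688 (SD, n = 11; two-sided exact permutation test, p = 0.00291). In the wider class under 200 bases the overlap came from consecutive-series dogs 006 (3.11%) and 022 (3.55%). Dogs 008 (2.13%) and 017 (1.69%), which resembled the odd series in their rare genes, lay below all 6 odd-series dogs. Dog 033A was the reverse, with 4.33% of its counts in short genes and the lowest share of counts in rare genes among odd-series dogs (0.391%).

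Some single genes separated the series without overlap. From the 562 genes called with and without dog 037A, changed at least 2-fold and with a mean of 5 CPM or more (84 higher, 478 lower), the 2 with the smallest p-values in each direction are given. The 2 that rose reached a mean of 5 CPM only through the odd series, with consecutive-series means of 0.730 and 2.51 CPM. All were chosen by p-value in these same dogs, so their wide separation follows in part from the choice. ENSCAFG00000026274, with an implied length of 167 bases, had 26.9 CPM in dog 027A, 7.90 in 029A, 10.8 in 030A, 18.1 in 033A, 7.84 in 034A and 25.1 in 037A. In the 11 consecutive-series dogs it had at least 0.352, a median of 0.636 and at most 1.23 CPM. The lowest odd-series dog thus lay well above the highest consecutive-series dog. Fitted by edgeR, this was a log2 fold change of 4.47 with a standard error of 0.34 (adjusted p = 2.43e-06, and 1.81e-05 without dog 037A).

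ENSCAFG00000028099, with an implied length of 203 bases, had 16.9 CPM in dog 027A, 18.3 in 029A, 17.3 in 030A, 34.9 in 033A, 12.9 in 034A and 18.0 in 037A. The consecutive-series dogs ranged from 1.10 to 4.14 CPM with a median of 2.31. Dog 033A was the highest and the series did not overlap. The edgeR estimate on the log2 scale was 2.97 with a standard error of 0.28 (adjusted p = 3.45e-05, and 8.09e-05 without dog 037A). The counts behind these genes were 105 to 573 and 241 to 597 per odd-series dog, but only 6 to 21 and 23 to 65 per consecutive-series dog, which limits the precision of the lower level.

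Of the genes that fell, ENSCAFG00000016316, with an implied length of 3896 bases, had 50.6 CPM in dog 027A, 53.4 in 029A, 43.8 in 030A, 56.5 in 033A, 52.5 in 034A and 52.1 in 037A. In the consecutive series it had 79.4 to 165 CPM with a median of 122.8, the lowest in dog 017. The odd-series dogs lay close together and below all consecutive-series dogs. In edgeR the series differed by -1.29 on the log2 scale with a standard error of 0.15 (adjusted p = 0.000160, and 0.000738 without dog 037A).

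ENSCAFG00000017004, with an implied length of 6484 bases, had 186 CPM in dog 027A, 196 in 029A, 126 in 030A, 279 in 033A, 239 in 034A and 271 in 037A. The consecutive-series dogs had 515 to 992 CPM with a median of 715. The 3 odd-series dogs with short survival (027A, 029A and 030A) were lower than the 3 with long survival, and all 6 lay below the consecutive series. The edgeR fit gave a log2 fold change of -1.64 with a standard error of 0.19 (adjusted p = 0.000188, and 0.000940 without dog 037A).

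The direction of these 4 genes held in the FPKM table, dog 037A included. ENSCAFG00000026274 had 44.8 to 160 FPKM in the odd series and 1.41 to 6.25 in the consecutive series, and ENSCAFG00000028099 had 37.8 to 159 and 6.08 to 17.7. ENSCAFG00000016316 had 12.2 to 18.3 and 23.8 to 39.7 FPKM, and ENSCAFG00000017004 had 23.2 to 41.8 and 73.8 to 150 FPKM. In no case did the series overlap. The FPKM values of dog 037A were 44.8 and 37.8 for the genes that rose, the lowest of the odd series, whereas by CPM it was not the lowest for either gene.

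The 8 odd-series dogs that were not labelled B-cell, 5 of unknown immunophenotype and 3 labelled T-cell, took no part in the fit. For these values CPM was scaled over all 25 dogs. ENSCAFG00000026274 had 7.49 to 19.2 CPM in these dogs, beside 0.353 to 1.11 in the consecutive series. ENSCAFG00000028099 had 10.7 to 41.9 CPM beside 1.14 to 4.0. ENSCAFG00000017004 had 76.9 to 337 CPM beside 480 to 960. For these 3 genes all 8 dogs lay outside the range of the consecutive series, on the side of the odd-series B-cell dogs. ENSCAFG00000016316 had 43.8 to 93.5 CPM beside 81.7 to 167, and the T-cell dog 036A, at 93.5, lay within the range of the consecutive series.

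**Figure D4:**
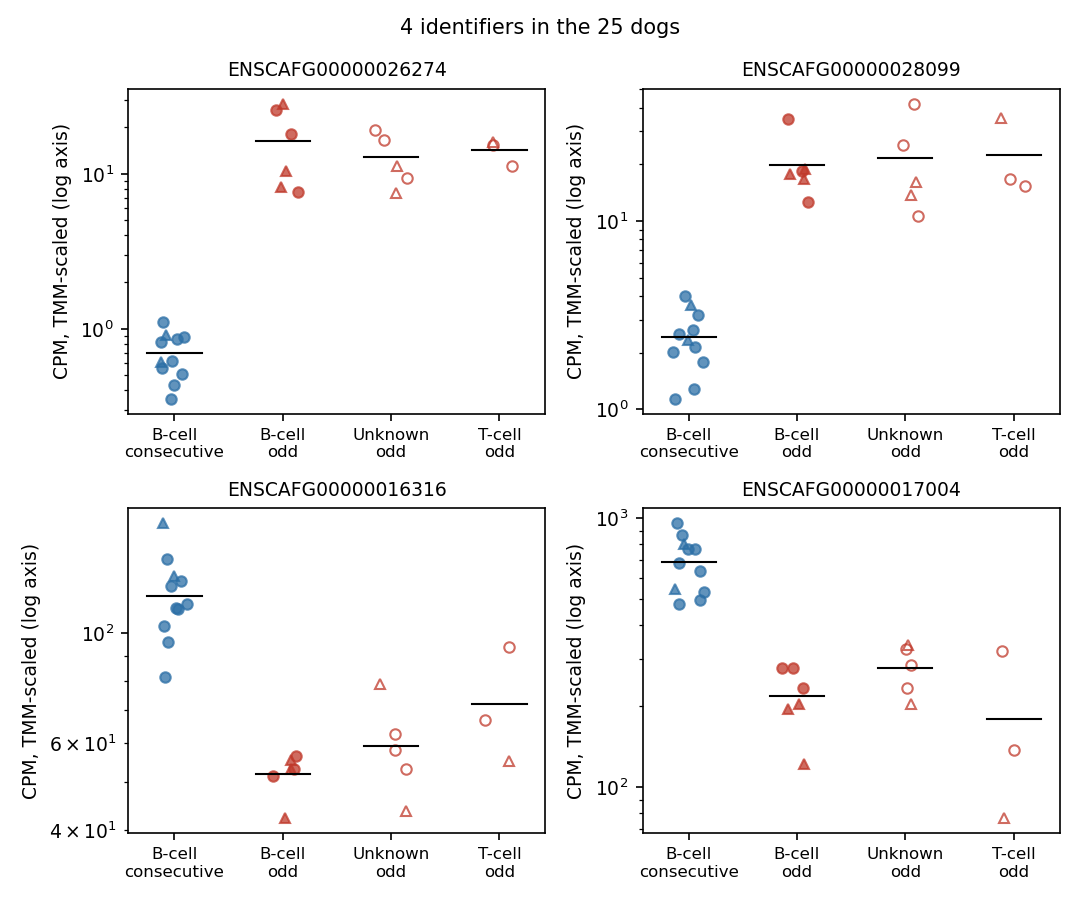
CPM, scaled by TMM over all 25 dogs (log axis), of the 2 identifiers that rose (top) and the 2 that fell (bottom). Points are dogs (circles long survival, triangles short survival, filled points B-cell, blue consecutive series, red odd series), and lines are group means. In 3 of the 4 panels no odd-series dog of any immunophenotype overlaps the consecutive series, and in the panel of ENSCAFG00000016316 the T-cell dog 036A does.

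Each dog was also set against genes called without it. For a B-cell dog, the genes were those called when that dog was left out, and for the other 8 dogs those called in the 17 B-cell dogs. A gene was on the odd side when the dog lay on that side of the midpoint between the series means of the B-cell dogs. In the counts, 9 of the 11 consecutive-series dogs had 5.41% to 16.5% of the called genes on the odd side. Dogs 008 and 017 had 57.8% and 49.9%. Odd-series B-cell dogs had 50.2% (033A) to 95.4% (030A), and dog 037A 69.5%. The 8 dogs of other immunophenotypes had 45.8% to 83.3%. Over all genes tested in the counts the shares were 20.2% to 55.1%, 45.5% to 79.2% and 37.8% to 68.3% in these groups. In some dogs the called genes stood no further to the odd side than that, with 54.7% of called and 57.0% of tested genes in dog 038A and 49.9% and 55.1% in dog 017. Dogs 008 (57.8% and 54.6%), 033A (50.2% and 45.5%) and 036A (47.2% and 45.6%) stood close to their shares of tested genes.

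The FPKM values could be set against fewer genes, those called that also passed the filter on mean FPKM (2343 of the 3237 for the dogs outside the fit), and there the groups did not overlap. The 11 consecutive-series dogs, 008 (20.1%) and 017 (23.9%) included, had 12.4% to 31.5% of the called genes on the odd side. The 6 odd-series B-cell dogs had 55.5% to 90.0%, with dog 037A at 62.1%, and the other 8 dogs 58.1% to 85.9%. In the counts, over the same smaller sets of genes, the shares were 5.04% to 34.9% in the consecutive series, 50.3% to 94.9% in the odd-series B-cell dogs and 47.0% to 82.1% in the other 8 dogs, with dog 008 at 25.6% and dog 017 at 34.9%. The groups thus did not overlap in the counts either once these genes alone were used. Over all genes tested in FPKM, called or not, the shares were 31.3% to 44.2%, 42.3% to 64.7% and 46.9% to 66.1%. The difference between dogs was therefore wider in the called genes than across the table.

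**Figure D5:**
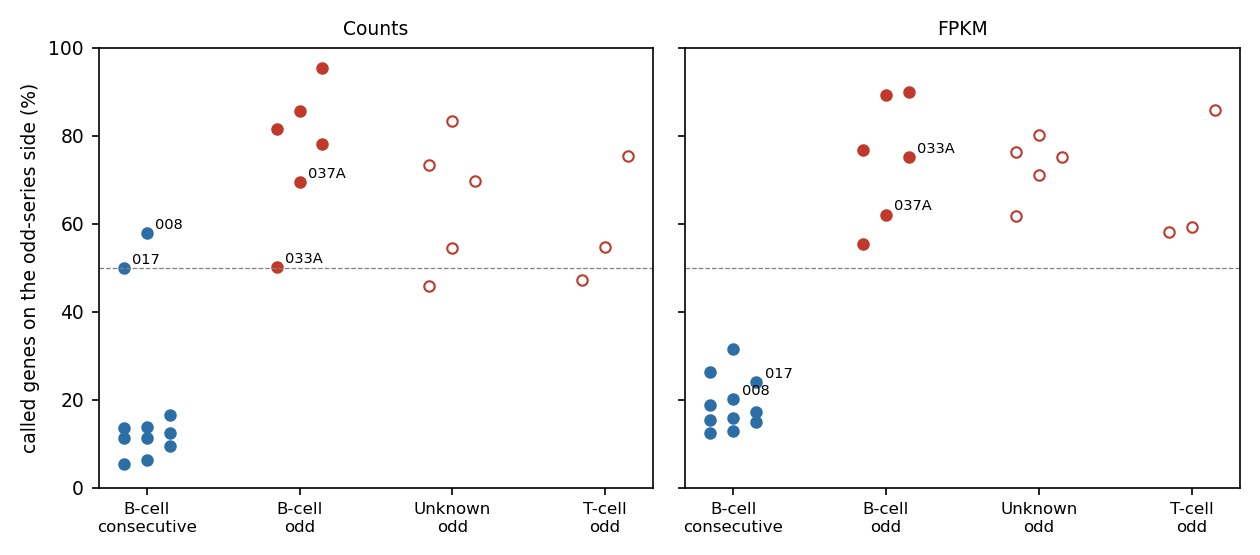
Percentage of called genes at which a dog lay on the odd-series side of the midpoint between the series means, in the counts (left) and the FPKM values (right). Points are dogs (filled B-cell, open other immunophenotypes, blue consecutive series, red odd series), with each B-cell dog left out of the fit that chose its genes, the panels use different sets of genes, and the dashed line is at 50%. In the FPKM values no consecutive-series dog exceeds 31.5% and no odd-series dog falls below 55.5%.

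The first principal component of log2(FPKM + 1), over 13256 genes that averaged 1 FPKM or more, held 20.7% of the variance among the 17 dogs. Odd-series dogs scored 31.0 (027A), 81.4 (029A), 49.1 (030A), 9.11 (033A), 35.2 (034A) and -7.48 (037A). Consecutive-series dogs scored between -34.9 and 1.59 with a median of -20.4. Dog 037A was the one odd-series dog within the range of the consecutive series. The mean scores differed by 1.60 SD (exact permutation test over 6 and 11 dogs, two-sided, p = 0.000646, adjusted 0.00452). That test, like the other permutation tests, had no survival covariate. Among dogs with long survival alone the mean scores were 12.3 (n = 3) and -19.1 (n = 9; two-sided exact permutation test, p = 0.0273). The sign of the component was set so that the odd series scored higher. In log2(CPM + 1) from the counts, dog 037A scored 30.3, above all consecutive-series dogs (highest 5.17), while dog 033A (1.26) lay within their range.

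The difference between the series was then examined by survival class. Among dogs with long survival (3 odd, 9 consecutive), 164 of 19294 genes (0.85%) were called, 79 higher and 85 lower, and 163 of them were also called in all 17 dogs with the same direction. All 4 identifiers were among them, with log2 fold changes of 4.71, 3.34, -0.97 and -1.29 in the order above (edgeR adjusted p = 0.000111, 0.000441, 0.0116 and 0.0163). These identifiers had been chosen in fits that included the same dogs. Among dogs with short survival (3 odd, 2 consecutive) edgeR called 0 of 20472 genes, with 5931 of them at an unadjusted p under 0.05. There the 4 identifiers had log2 fold changes of 4.29, 2.51, -1.62 and -2.04 in the order above (edgeR adjusted p = 0.115 for each). The test of the difference itself, the interaction of series and survival, called 0 of 23275 genes (0%) with edgeR and 0 with DESeq2, beside 738 and 944 at an unadjusted p under 0.05.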

How the data were processed

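RNA-Seq of 25 dogs was deposited by the authors as a table of raw counts and a table of FPKM, with 1 column per dog, and 0 columns of per-sample values were left unused. Per the paper's methods and the submitters' processing notes, the authors aligned reads with HISAT2 2.1.0 to CanFam3.1 and quantified genes with StringTie 1.3.3, and Ballgown was used by the authors for the FPKM. The program that made the deposited counts, its strand setting and its treatment of shared reads are not given in the sources used here, so overlapping genes and near-identical copies are uncertain. The labels call the molecule total RNA, and the methods describe poly A-RNA.

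The 17 B-cell dogs were compared with edgeR 4.0.16 in R 4.3.3 (filterByExpr, TMM, glmQLFit and glmQLFTest, survival class as covariate), with Benjamini-Hochberg adjustment at 0.05. Standard errors are the size of the log2 fold change divided by the square root of F. DESeq2 1.42.0 and limma 3.58.1 on log2(FPKM + 1), restricted to a gene average of 1 FPKM, were alternatives, with other filters, scalings and subsets of dogs. The code was tested on simulated data. Single measures were compared by exact permutation without a survival covariate (SciPy 1.17.1). Totals of 9592039 to 28979456 counts leave rare genes imprecise. An implied length is the count per FPKM, scaled to the library total and pooled over 16 dogs, for genes with at least 100 pooled counts.

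Identifiers were printed by a rule: the 2 with the smallest p in each direction among genes called with and without dog 037A, changed at least 2-fold and with a mean of 5 CPM. The RefSeq table, of another assembly, held 0 of the 32704 identifiers, so marker and pathway lists were not run. The dogs, lists and tests were chosen with earlier results of these data known. Length and abundance classes, the shares of counts in them, the test of scaling factors, midpoint shares, checks within long survival, the fit with library totals and limma without dog 037A were added after seeing the data.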

Additional observations from a re-analysis of the deposited data

Results flagged for a closer look

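In 21 combinations of a measure and a group of 5 or 6 dogs, the highest or lowest dog was compared with its nearest neighbour, and 2 stood apart, where chance alone sets apart about 1 in 20. ENSCAFG00000028099 had 34.9 CPM in dog 033A, and the next highest odd-series B-cell dog, 029A, had 18.3. The correlation of counts with FPKM was 0.268 in dog 037A, and the next lowest odd-series B-cell dog, 033A, had 0.934.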

How the results depend on the processing

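Of the planned results, the direction and side of the threshold held for the library total and the share of the 100 most abundant genes in each other fit or subset tried for them. The first principal component kept its side of the threshold. Its direction could not change, because its sign was set each time so that the odd series scored higher. The difference in genes detected also held at 10 counts and at equal depth, but among dogs with long survival alone, a check chosen after seeing the data, it was 4553 genes (exact permutation test, p = 0.0727). The number of genes called (3237), of those at least 2-fold changed (1790) and the percentage of calls that were higher (34.2%) moved, and the cause was not tested. Without the survival covariate they were 5368, 3149 and 49.2%, and with DESeq2 6921, 5260 and 73.6%. The percentage was 75.1% with upper-quartile factors and 47.8% with no filter on low counts. In limma they were 1166, 344 and 21.2% with a pseudocount of 1, 1168, 510 and 20.2% with 0.1, and 1600, 337 and 54.6% without a filter. Long survival alone gave 164, 117 and 48.2%, and short survival alone 0 and 0 (edgeR, 5931 of 20472 at an unadjusted p under 0.05). Equal depth gave 1776, 1018 and 43.8%, and the suffix letter in place of the series 868, 418 and 23.6%. Chosen after seeing the data, library totals gave 1285, 846 and 57.7%, and limma without dog 037A 1097, 389 and 27.2%. With each dog left out in turn, calls ranged from 1584 to 5089, 2-fold calls from 865 to 3580, the percentage from 21.7% to 64.0% and interaction calls from 0 to 2. Calls moved by over 1.5 times without dog 001 (1584), 009 (1609), 030A (1938), 034A (1590), 037A (1646) or 008 (5089). Each of the 4 identifiers kept its direction in 30 alternatives and its call in 29, the exception being short survival alone. They had been chosen by p-value in the same dogs, so this tally is not independent of the choice. The call without dog 037A was a condition of the choice and could not fail. No paired analysis was possible because each dog gave 1 sample and no number is shared between the series. Depth limits the genes under 1 CPM.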
